A study of Homo sapiens with 17 samples.

Results

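Gene expression in HepG2 cells given Nala was compared with that in untreated HepG2 cells, named NC, over 3 RNA-seq libraries of each. A gene was a member of the comparison when it reached 1 RPKM (its reads divided by the length of its gene model and the library's counted reads) in at least 3 of these 6 libraries. The rule kept 12612 of the 17808 genes in the table. HepG2 is an established line from a human hepatocellular carcinoma, and every library carries the genotype WT. Nala was given at 40 mM, for 48 h per the library names and for 24 h per the study's design text, while the NC libraries are named as untreated for 24 h. The agent and the hours of culture therefore cannot be told apart. The labels do not spell out the name Nala. The study's title concerns lactate, histone lactylation and the chromatin protein BRD9. The 3 libraries of cells given 40 mM 2-DG for 48 h, an inhibitor of glycolysis, entered the same fit to estimate the spread of each gene and are otherwise cited only beside a Nala result. The series also holds 6 ChIP-seq and 2 ATAC-seq samples of 2-DG and NC cells, which are not analysed here.

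Nala replicates 2 and 3 differed by less than counting noise. A chi-square test of the reads recovered from their RPKM values gave 0.923 per degree of freedom over 12897 genes (p = 1), where counting noise alone gives 1. Nala replicate 1 stood 3.07 and 2.80 from them on that scale, and the 6 pairs within the NC and 2-DG groups lay between 2.12 and 9.89. On this pooled value replicates 2 and 3 were counted as 1 sample, which leaves Nala n = 2 against NC n = 3. Split by read density, this pair gave 1.13 among the least densely covered 25% of genes, beyond counting noise (chi-square p = 1.42e-07). Among the most densely covered 25% it gave 0.706, less than independent counting gives, which lowers the pooled value. The check therefore does not show that the 2 libraries are 1 sample, and the fit with them kept apart is given as an alternative. Nothing in the labels says how the replicates were cultured, so p-values measure the spread between these samples, which may be technical. Counted totals were 6463024, 6645071 and 6653130 reads in the Nala libraries, and 6447956, 6548811 and 6207760 reads in the NC libraries. A single read over 1 kb thus counts for 0.150 to 0.161 RPKM.

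The hepatocyte label was checked against liver genes. Of 31 genes for proteins that hepatocytes secrete, 17 had a row in the table used here, and 11 of these 17 were under 1 RPKM in all 6 libraries. Albumin, the main plasma protein made by hepatocytes, was among those without a row. HNF4A, a master regulator of hepatocyte genes, had 1.61, 2.06 and 2.16 RPKM with Nala and 2.38, 1.71 and 1.41 RPKM in NC. Of 26 liver regulators and enzymes 19 had a row, and 13 of these were under 1 RPKM in all 6 libraries. Some liver genes were well expressed: CPS1, the entry enzyme of the urea cycle, had 102.2, 102.1 and 103.3 RPKM with Nala and 129.4, 98.5 and 114.7 RPKM in NC, and ASS1, a later enzyme of that cycle, had 74.9, 76.1 and 77.8 RPKM with Nala and 87.9, 74.2 and 77.4 RPKM in NC. CEBPA, another liver regulator, had 15.0, 23.3 and 23.0 RPKM with Nala and 33.9, 17.4 and 21.1 RPKM in NC. The low or missing genes for secreted proteins go against the liver label and these 3 genes do not, in Nala and NC libraries alike, and the samples are called here by the line's name as labelled.

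Cells that sit in medium with more solute than their own interior lose water and then collect small neutral molecules, the osmolytes betaine, taurine, myo-inositol and sorbitol, through transporters and enzymes that the factor NFAT5 switches on. Interferon-stimulated genes form another program: they encode antiviral proteins and are switched on through a promoter element, the ISRE. Lactate enters and leaves cells through the carriers SLC16A1 and SLC16A3, is interconverted with pyruvate by lactate dehydrogenase, and can be attached to histone lysines as lactylation.

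Of the 35 gene lists examined, that of interferon-stimulated genes held the most called members, and their ISREs can be read in the reference sequence. The promoters below belong to the called genes IFIT3 and HERC5 and to IFIT1 and IFI44, which missed the threshold. Each line gives the 250 bases before the start of the gene, 5' to 3' on the gene's strand, from RefSeq GRCh38.p14. Capitals mark each match of the ISRE core, which is GAAA, any 2 bases and GAAA again, searched on both strands. All 8 matches lie on the opposite strand and therefore read TTTC, any 2 bases and TTTC here.
IFIT3, chr10:89327747-89327996, plus strand: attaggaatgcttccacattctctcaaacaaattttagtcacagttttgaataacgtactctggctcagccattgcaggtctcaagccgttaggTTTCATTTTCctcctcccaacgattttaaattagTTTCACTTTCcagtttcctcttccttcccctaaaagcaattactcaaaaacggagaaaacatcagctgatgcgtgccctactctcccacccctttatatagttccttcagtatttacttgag
HERC5, chr4:88456869-88457118, plus strand: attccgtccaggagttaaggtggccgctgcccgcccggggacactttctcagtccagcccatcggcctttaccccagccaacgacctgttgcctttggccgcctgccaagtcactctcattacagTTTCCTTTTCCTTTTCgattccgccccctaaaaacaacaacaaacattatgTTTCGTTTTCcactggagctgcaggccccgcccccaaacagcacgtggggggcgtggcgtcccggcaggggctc
IFIT1, chr10:89392373-89392622, plus strand: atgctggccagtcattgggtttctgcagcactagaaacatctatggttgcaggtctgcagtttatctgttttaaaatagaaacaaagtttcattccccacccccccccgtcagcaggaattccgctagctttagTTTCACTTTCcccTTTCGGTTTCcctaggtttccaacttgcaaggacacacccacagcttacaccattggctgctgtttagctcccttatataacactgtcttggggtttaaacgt
IFI44, chr1:78649539-78649788, plus strand: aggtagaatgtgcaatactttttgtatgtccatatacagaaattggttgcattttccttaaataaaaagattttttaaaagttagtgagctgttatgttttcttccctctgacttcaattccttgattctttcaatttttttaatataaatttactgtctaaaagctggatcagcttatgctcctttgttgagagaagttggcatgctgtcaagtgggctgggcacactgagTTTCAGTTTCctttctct
IFIT3 held 2 cores, beginning 156 and 122 bases before the start, and IFIT1 held 2, at 116 and 103 bases. HERC5 held 3, at 125, 119 and 74 bases, and the first 2 of them overlap. IFI44 held 1, at 18 bases. The core was found in 15 of the 25 interferon list members that have a promoter in the RefSeq table, in 2.06% of the 9833 promoters of genes tested and in 3.07% of all 27305 promoters. The printed promoters all hold it, unlike those of HERC6 and other list members. Of the 12 called genes with a promoter in that table, 2 held it, IFIT3 and HERC5. IFIT2 has no entry there and is named only.

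Across all 12612 genes, 17 passed limma's test at an adjusted p under 0.05, which is 0.135% of them, and all 17 were higher with Nala. No gene was called lower. At an unadjusted p under 0.05, limma gave 715 genes (5.67%), 456 higher and 259 lower. Over all genes the log2 fold change had a median of 0.01 and its standard error a median of 0.14, on the log2(RPKM + 1) scale used throughout. Log2 fold changes went beyond 1 in size in 71 genes, 49 above and 22 below. The called genes SLC6A12 and MYH15 passed the filter through the Nala libraries alone, as 27 genes did, and 16 genes passed through NC alone. Every Nala library lay above every NC library in 10.3% of genes and below every NC library in 8.1%. The 17 called genes kept a positive fold change under each of the 18 alternative settings that tested them, and MYH15 was tested under 17. Only PPIAP46 and SLC6A12 were called under every one. Without Nala replicate 1 those 2 were the only genes called, and 7 genes were called without NC replicate 2 or without NC replicate 3. With Nala replicates 2 and 3 kept apart as 3 Nala samples, 69 genes were called, 64 higher and 5 lower, and the count model limma-voom on recovered reads called 73, 65 higher and 8 lower. TNFAIP3, an inhibitor of NF-kB signalling, was among the lower genes of both, at -0.61 with the pair apart (limma adjusted p = 0.0151) and -0.66 with voom (limma adjusted p = 0.0123), both in log2.

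**Figure D1:**
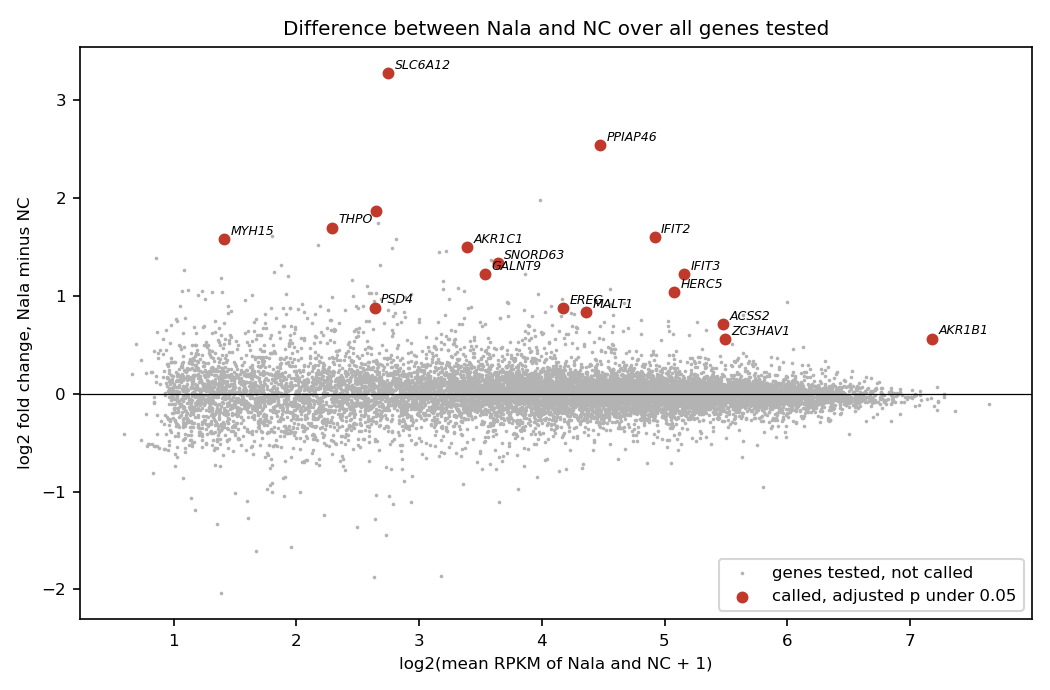
Log2 fold change of Nala over NC against mean level for the 12612 genes tested, with 1 point a gene the 17 genes called by limma in red and 16 of them named. The called genes all lie above 0, and SLC6A12 (3.28) and PPIAP46 (2.54) stand highest among them.

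SLC6A12 and AKR1B1, which supply osmolytes, were among the called genes. SLC6A12, the betaine and GABA transporter that renal cells use to take up betaine, had 11.2, 11.9 and 10.3 RPKM in the Nala libraries, against 0.532, 0.0436 and 0.23 RPKM in the NC libraries. These values rest on 254, 277 and 240 reads with Nala, and on 12, 1 and 5 reads in NC. The gene had few reads in NC and many in all Nala libraries, and it rose by 3.28 ± 0.20 in log2(RPKM + 1) (SE, limma adjusted p = 0.000178). No NC library reached 1 RPKM, so SLC6A12 passed the filter through the Nala libraries alone, which fixed its direction in advance. The ratio of the group means was 41.6. It lies on chromosome 12 from 183848 to 214157 and overlaps its antisense gene SLC6A12-AS1, whose reads cannot be told apart without strand. AKR1B1, aldose reductase, which makes sorbitol from glucose, had 173.0, 172.7 and 169.4 RPKM with Nala, against 111.9, 121.7 and 114.7 RPKM in NC. Its levels were the highest of the 17, the groups did not overlap, and it rose by 0.56 ± 0.06 (limma adjusted p = 0.00504).

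The other osmolyte carriers were not called in this fit. SLC5A3, which brings in myo-inositol, had 24.4, 18.9 and 18.7 RPKM with Nala and 10.4, 11.9 and 13.8 RPKM in NC. The groups did not overlap, with a log2 difference of 0.79 ± 0.15 (limma adjusted p = 0.155), and its gene model overlaps MRPS6. It was called with the Nala pair kept apart (limma adjusted p = 0.0461) and with voom (limma adjusted p = 0.00941). SLC6A6, the taurine carrier, had 54.4, 52.7 and 50.2 RPKM with Nala and 62.9, 48.6 and 50.8 RPKM in NC, values that overlap. NFAT5 itself had 29.7, 26.4 and 25.2 RPKM with Nala and 24.3, 26.5 and 26.0 RPKM in NC (log2 difference 0.11 ± 0.10, limma adjusted p = 0.997). SGK1, a kinase induced by cell shrinkage, had 63.8, 63.2 and 65.1 RPKM with Nala and 68.5, 62.1 and 59.5 RPKM in NC, which also overlap. CCL2, a chemokine and NFAT5 target, had 3.94, 4.83 and 4.02 RPKM with Nala and 0.208, 0.613 and 1.51 RPKM in NC. Those are 19, 24 and 20 reads against 1, 3 and 7, a log2 difference of 1.61 ± 0.29 (limma adjusted p = 0.112).

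Of 26 hyperosmotic response genes tested, 2 were called higher and none lower, and 7 (26.9%) had every Nala library above every NC library against 10.3% of all genes. In 2 (7.69%, against 8.1% of all genes) the order was the reverse. SLC6A12, which passed the filter through the Nala libraries alone, is counted among the called genes and among the 7. The list's median log2 fold change was 0.05, against 0.01 over all genes, and ranged from 0.033 without Nala replicate 1 to 0.081 without NC replicate 1. The core TGGAAA of the element that NFAT5 binds, searched on both strands, stood in 1 of the 20 promoters available for the list and in 13.0% of the promoters of genes tested. It stood in 9 of the 25 promoters of the interferon list and in 4 of the 12 available for the called genes, those of IFIT3, EREG, HERC5 and MYH15. The promoter of AKR1B1 held no match in the 250 bases searched, and SLC6A12 has no promoter entry. Sites further from the start were not searched, so these counts cannot show which genes NFAT5 binds. Of 13 sodium and pH handling genes none was called. In 3 (23.1%, against 10.3% of all genes) the libraries lay above NC without overlap, and in 1 (7.69%, against 8.1%) below. ATP1B1, a subunit of the sodium pump, was among the 3, with 87.8, 87.9 and 86.2 RPKM with Nala and 71.6, 67.8 and 68.7 RPKM in NC (log2 difference 0.33, limma adjusted p = 0.339).

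IFIT2, IFIT3 and HERC5 were the called interferon-stimulated genes. IFIT2, an antiviral protein that binds viral RNA, had 44.5, 42.6 and 46.0 RPKM with Nala, against 16.4, 13.3 and 12.5 RPKM in NC, and rose by 1.6 ± 0.13 (limma adjusted p = 0.00195). The lowest Nala library was above the highest NC library by more than the range within either group. IFIT3, its partner protein, had 47.1, 49.97 and 52.4 RPKM with Nala, against 19.6, 21.9 and 19.96 RPKM in NC, and rose by 1.22 ± 0.15 (limma adjusted p = 0.0185). HERC5, the ligase that attaches ISG15 to proteins, had 43.8, 45.3 and 44.1 RPKM with Nala, against 24.4, 16.9 and 22.4 RPKM in NC, and rose by 1.04 ± 0.15 (limma adjusted p = 0.0470). IFIT1, IFIT2 and IFIT3 lie inside the annotated span of LIPA, a lysosomal lipase with 58.0, 49.2 and 47.9 RPKM with Nala and 49.0, 51.3 and 51.9 RPKM in NC, values that overlap.

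**Figure D2:**
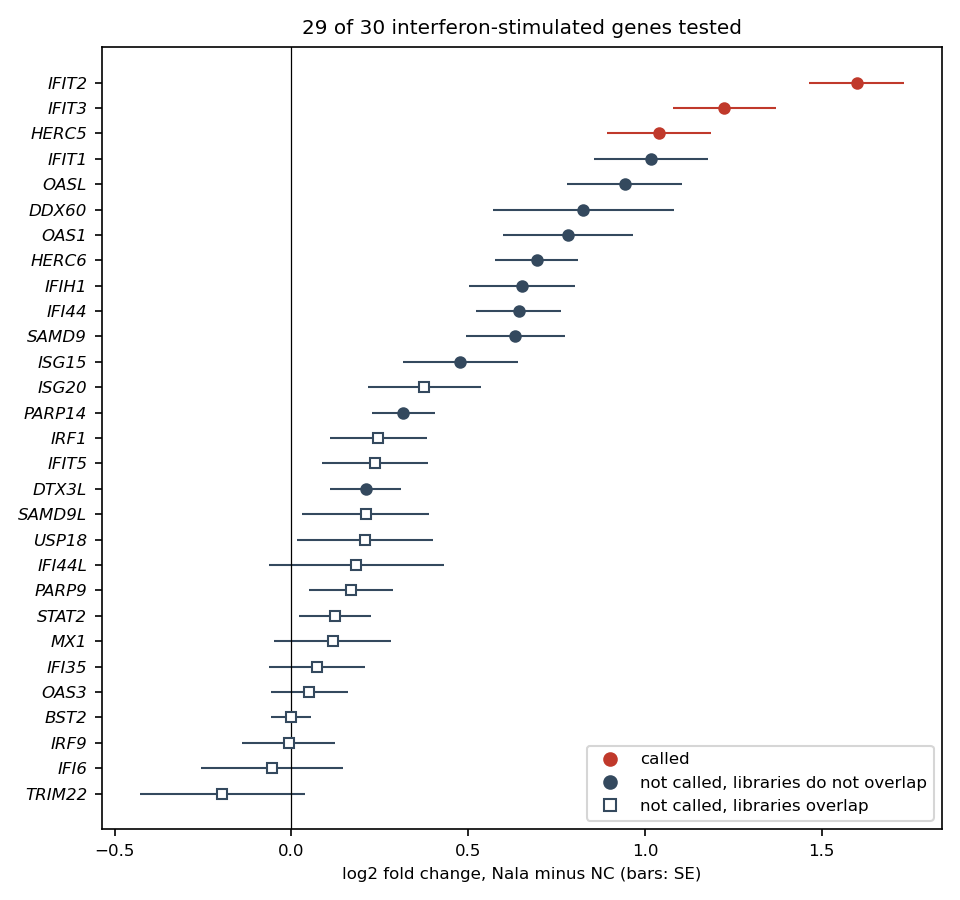
Log2 fold change of Nala over NC for 29 of the 30 interferon-stimulated genes tested, with the standard error as a bar; red points mark called genes, filled points genes whose libraries do not overlap and open squares those that overlap. IFIT2, IFIT3 and HERC5, the called genes, lie furthest to the right, between 1.04 and 1.6.

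ZC3HAV1, a zinc finger protein that directs viral RNA to decay and was not on the interferon list, had 51.4, 53.7 and 54.3 RPKM with Nala, against 33.9, 36.7 and 35.7 RPKM in NC. It rose by 0.56 ± 0.08 (limma adjusted p = 0.0470). IFIT1, which binds RNA with a foreign cap, missed the threshold, with 20.3, 19.3 and 19.9 RPKM with Nala and 10.99, 8.97 and 8.24 RPKM in NC (log2 difference 1.02, limma adjusted p = 0.0688). OASL, related to the enzymes that sense double-stranded RNA, had 77.6, 87.9 and 88.7 RPKM with Nala and 53.6, 37.4 and 38.5 RPKM in NC (0.94, limma adjusted p = 0.0941). HERC6, a neighbour of HERC5, had 18.1, 16.1 and 17.3 RPKM with Nala and 10.9, 9.62 and 10.6 RPKM in NC (0.69, limma adjusted p = 0.0885). IFI44 had 38.6, 37.7 and 40.7 RPKM with Nala and 24.3, 22.3 and 27.3 RPKM in NC (0.64, limma adjusted p = 0.155). In each of these 4 genes the groups did not overlap.

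Of 30 interferon-stimulated genes tested, 3 were called higher and none lower. In 14 of them (46.7%, against 10.3% of all genes) every Nala library lay above every NC library, and in none was the order reversed. Fold changes were positive in 25 of the 30, with a median of 0.24 against 0.01 over all genes. Summed over the 30 genes the level was 833, 868 and 879 RPKM with Nala, against 681, 587 and 618 RPKM in NC. STAT2, a factor that acts at the ISRE, was not called and had 37.7, 38.4 and 39.0 RPKM with Nala and 38.1, 31.3 and 35.9 RPKM in NC. The ISRE core stood in 9 of the 12 list members whose libraries did not overlap and that have a promoter entry, and in 6 of the 13 whose libraries overlapped. Outside the list, 188 genes tested have the core in their promoter. Their median log2 fold change was 0.01, and 10.6% of them had every Nala library above every NC library, against 10.4% of the genes without the core. Of 11 genes of MHC class I antigen presentation, another interferon-responsive system, none was called, none lay above NC without overlap and 2 lay below it.

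The called genes outside these groups had varied roles. EREG, epiregulin, a ligand of the EGF receptor, had 21.8, 23.2 and 22.6 RPKM with Nala, against 13.1, 11.02 and 11.2 RPKM in NC, and rose by 0.87 ± 0.11 (limma adjusted p = 0.0185). THPO, thrombopoietin, the hormone by which liver drives platelet formation, had 6.0, 7.92 and 6.0 RPKM with Nala, against 1.37, 1.18 and 1.34 RPKM in NC, and rose by 1.70 ± 0.17 (limma adjusted p = 0.00504). It rests on 70, 95 and 72 reads with Nala and on 16, 14 and 15 reads in NC, and the groups stand far apart. MALT1, a protease that carries signals to NF-kB, had 26.5, 24.99 and 23.3 RPKM with Nala, against 12.6, 13.8 and 14.8 RPKM in NC, and rose by 0.84 ± 0.12 (limma adjusted p = 0.0470). In EREG, THPO and MALT1 each Nala library exceeded each NC library.

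PSD4, an exchange factor for the small GTPase ARF6, had 7.18, 7.56 and 6.35 RPKM with Nala, against 3.26, 3.27 and 3.62 RPKM in NC, and rose by 0.88 ± 0.13 (limma adjusted p = 0.0470). It was called under 6 of the 18 alternatives, the fewest of the 17. GALNT9, an enzyme that starts O-linked sugar chains, had 13.4, 17.8 and 16.4 RPKM with Nala, against 6.0, 6.02 and 5.75 RPKM in NC, and rose by 1.22 ± 0.18 (limma adjusted p = 0.0470). MYH15, a myosin heavy chain, had 3.50, 2.40 and 2.53 RPKM with Nala, against 0.110, 0.604 and 0.296 RPKM in NC, and rose by 1.58 ± 0.23 (limma adjusted p = 0.0470). As no NC library reached 1 RPKM, the filter fixed the direction of MYH15 in advance. Its span overlaps the end of CIP2A, whose levels of 24.8, 21.5 and 21.1 RPKM with Nala and 24.5, 25.5 and 25.9 RPKM in NC overlap.

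PPIAP46 and SNORD63 lie inside other genes. PPIAP46, a processed copy of the cyclophilin gene PPIA on chromosome 15 from 74361552 to 74362041, had 36.6, 36.9 and 37.4 RPKM with Nala, against 5.70, 4.67 and 6.25 RPKM in NC. It rose by 2.54 ± 0.13, with the smallest p of all genes (limma adjusted p = 8.45e-05). It sits within CYP11A1, the enzyme that begins steroid synthesis, which had 21.7, 23.5 and 23.9 RPKM with Nala and 18.6, 11.6 and 12.1 RPKM in NC (log2 difference 0.68, limma adjusted p = 0.439). PPIA itself had 38.9, 39.8 and 40.3 RPKM with Nala and 41.1, 45.8 and 40.0 RPKM in NC. No source used here says how the authors' counting divided reads among PPIAP46, CYP11A1 and PPIA, so the value of PPIAP46 is uncertain. SNORD63, a small nucleolar RNA inside HSPA9, rose by 1.34 ± 0.20 (limma adjusted p = 0.0470) from 7, 8 and 8 reads with Nala and 3, 2 and 3 reads in NC. A log-scale test on RPKM does not see counting error that large, and voom, which weights each value by its reads, did not call SNORD63.

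**Figure D3:**
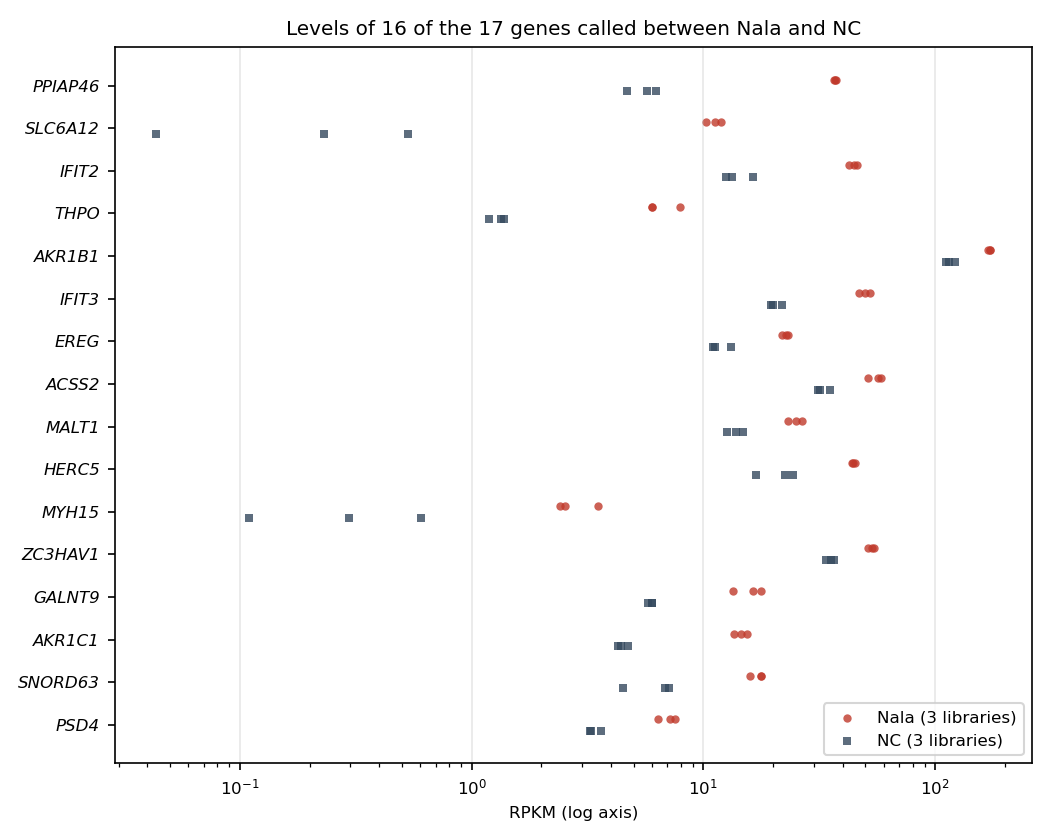
RPKM in each Nala and NC library for 16 of the 17 called genes, on a log axis, with 1 point a library; Nala libraries are red circles and NC libraries dark squares set just under them. In these 16 genes the 3 Nala points lie to the right of the 3 NC points, and SLC6A12 and MYH15 have all NC points under 1 RPKM.

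ACSS2, called higher with Nala, makes acetyl-CoA from acetate in the cytosol and nucleus. It had 51.3, 56.6 and 58.2 RPKM with Nala, against 31.8, 31.2 and 35.1 RPKM in NC. It rose by 0.72 ± 0.10 (limma adjusted p = 0.0470). ACLY, which makes acetyl-CoA from citrate, had 95.9, 94.5 and 98.6 RPKM with Nala and 79.2, 91.9 and 85.8 RPKM in NC, without overlap and without a call (0.17, limma adjusted p = 0.948). EP300, an acetyltransferase that can also transfer lactyl groups, had 33.9, 32.2 and 32.3 RPKM with Nala and 28.4, 33.6 and 31.5 RPKM in NC, values that overlap. Of 26 enzymes of lactylation and acetylation, ACSS2 was the 1 called. Without overlap, 4 (15.4%, against 10.3% of all genes) lay above NC and 1 (3.85%, against 8.1%) below.

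The genes that carry and convert lactate gave no call in either direction among 27 tested, with a median log2 fold change of 0.00. Without overlap, 3 (11.1%, against 10.3% of all genes) lay above NC and 1 (3.70%, against 8.1%) below. LDHA, the muscle-type subunit of lactate dehydrogenase, had 86.9, 84.9 and 86.9 RPKM with Nala and 87.9, 89.2 and 80.8 RPKM in NC. Its log2 difference of 0.01 ± 0.07 was smaller than its error. LDHB, the heart-type subunit, had 116.0, 115.6 and 116.6 RPKM with Nala and 114.9, 120.7 and 111.7 RPKM in NC. SLC16A1 had 53.3, 47.1 and 46.5 RPKM with Nala and 52.4, 52.9 and 58.2 RPKM in NC (-0.12 ± 0.10, limma adjusted p = 0.997). SLC16A3 had 53.04, 54.03 and 52.6 RPKM with Nala and 56.1, 51.7 and 54.8 RPKM in NC, and the groups overlap as in the other 3 genes. MPC1, part of the carrier that brings pyruvate into mitochondria, had 6.60, 8.97 and 8.40 RPKM with Nala and 7.98, 9.01 and 8.70 RPKM in NC. PDK1, a kinase that shuts off pyruvate dehydrogenase, spread widely within both groups, with 10.2, 8.76 and 5.41 RPKM with Nala and 16.96, 8.70 and 6.91 RPKM in NC. HCAR1, the surface receptor for lactate, did not reach the filter, with 0.676, 0.303 and 0.202 RPKM with Nala and 0.208, 0.103 and 0.216 RPKM in NC.

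BRD9, the bromodomain protein in the study's title, had 52.7, 54.6 and 55.8 RPKM with Nala and 52.3, 64.6 and 56.3 RPKM in NC (log2 difference -0.09 ± 0.11, limma adjusted p = 0.997). The groups overlap. Of 25 SWI/SNF subunits tested, the remodelling complexes that hold BRD9, none was called. Libraries with Nala lay below NC without overlap in 5 of them (20%, against 8.1% of all genes) and above in none, and 19 of the 25 fold changes were negative, with a median of -0.05, which was -0.085 without NC replicate 1 and -0.036 without NC replicate 2. MYC, a growth-promoting transcription factor, had 81.9, 82.9 and 81.2 RPKM with Nala and 82.5, 95.6 and 78.0 RPKM in NC. Of 21 glycolysis and glucose uptake genes, none was called, 1 (4.76%, against 10.3% of all genes) lay above NC without overlap and 2 (9.52%, against 8.1%) below.

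TXNIP, which restrains glucose uptake and falls when sugar phosphates fall, had 9.83, 12.1 and 13.1 RPKM with Nala and 30.1, 16.7 and 12.2 RPKM in NC. NC replicate 1 was far above the rest, and the log2 difference of -0.67 ± 0.29 was not called (limma adjusted p = 0.846). CA9, a carbonic anhydrase induced by low oxygen, had 31.1, 24.2 and 7.83 RPKM with Nala and 58.2, 16.02 and 10.5 RPKM in NC, so that it varied several-fold within each group. Its log2 difference was 0.05 ± 0.59. Of 26 hypoxia genes none was called, 3 (11.5%, against 10.3% of all genes) lay above NC without overlap and 1 (3.85%, against 8.1%) below. That 1 was ADM, a vessel-dilating peptide, with 36.1, 31.7 and 29.0 RPKM with Nala and 52.6, 48.5 and 42.9 RPKM in NC (-0.52, limma adjusted p = 0.215).

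AKR1C1, an enzyme that reduces steroids and reactive aldehydes, was called and had 14.5, 13.6 and 15.5 RPKM with Nala, against 4.26, 4.42 and 4.74 RPKM in NC. It rose by 1.5 ± 0.22 (limma adjusted p = 0.0470). Its close copies lay above NC without overlap and without a call. AKR1C3 had 28.8, 33.5 and 32.5 RPKM with Nala and 13.7, 12.6 and 16.4 RPKM in NC, and AKR1C2 had 2.02, 2.42 and 2.88 RPKM with Nala and 0.473, 0.678 and 0.715 RPKM in NC (limma adjusted p = 0.155 for both). The AKR1C genes are near-identical, so the division of reads among them is uncertain. AKR1C2 reached 1 RPKM in no NC library and passed the filter through the Nala libraries alone. ABCC2, a pump that exports glutathione conjugates, missed the threshold, with 8.64, 9.56 and 10.1 RPKM with Nala and 3.50, 3.87 and 4.88 RPKM in NC (1.02 ± 0.15, limma adjusted p = 0.0520). Of 28 genes of NRF2, glutathione and the pentose phosphate route, AKR1C1 was the 1 called, 7 (25%, against 10.3% of all genes) lay above NC without overlap and none below. The median log2 fold change was 0.08, and 0.0032 without NC replicate 1.

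No cholesterol gene was called, but 11 of 27 (40.7%, against 10.3% of all genes) had every Nala library above every NC library. The reverse order held in 1 (3.70%, against 8.1%). Fold changes were positive in 23 of the 27, with a median of 0.21, which was 0.13 without NC replicate 1. MVD, which makes isopentenyl diphosphate, had 40.1, 47.4 and 49.3 RPKM with Nala and 30.9, 35.1 and 36.4 RPKM in NC (0.36 ± 0.13, limma adjusted p = 0.709). SQLE, squalene epoxidase, had 79.1, 77.7 and 75.5 RPKM with Nala and 50.3, 68.7 and 73.0 RPKM in NC, where replicate 1 was the lowest. The list summed to 1295, 1325 and 1321 RPKM with Nala, against 1103, 1159 and 1277 RPKM in NC, and the gap between the nearest libraries of the groups was smaller than the spread within NC. SREBF1, a factor that activates lipid genes, was the 1 below NC, with 56.3, 62.1 and 60.7 RPKM with Nala and 71.0, 63.6 and 68.8 RPKM in NC (-0.20, limma adjusted p = 0.997).

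Of 14 MAPK feedback genes, which ERK signalling switches on and which then restrain it, none was called, 5 (35.7%, against 10.3% of all genes) lay above NC without overlap and none below. The median log2 fold change was 0.30, and it was 0.46 without NC replicate 2. SPRY4, a Sprouty inhibitor, had 3.84, 4.67 and 3.70 RPKM with Nala and 0.839, 2.29 and 1.48 RPKM in NC (1.02 ± 0.25, limma adjusted p = 0.305). ETV4, a factor downstream of ERK, had 45.4, 49.1 and 47.2 RPKM with Nala and 24.8, 35.4 and 24.3 RPKM in NC (0.73 ± 0.19, limma adjusted p = 0.339). DUSP6, an ERK phosphatase, had 4.44, 4.48 and 4.10 RPKM with Nala and 2.2, 5.25 and 3.08 RPKM in NC, which overlap. The EGF receptor ligands AREG, with 1.56, 1.22 and 1.82 RPKM with Nala and 2.07, 1.42 and 1.63 RPKM in NC, and HBEGF, with 2.1, 1.34 and 2.04 RPKM with Nala and 1.18, 2.14 and 1.84 RPKM in NC, overlapped between groups, unlike EREG.

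Genes of mitosis lay below NC together without passing the test one by one. Of 42 tested, none was called, 29 (69.0%, against 8.1% of all genes) had every Nala library below every NC library, none had the reverse, and 41 fold changes were negative. The median log2 fold change was -0.20, and summed levels were 1785, 1640 and 1665 RPKM with Nala, against 1891, 2032 and 1950 RPKM in NC. HMMR, a spindle protein, had 19.2, 14.5 and 14.2 RPKM with Nala and 23.0, 21.3 and 23.6 RPKM in NC (-0.42 ± 0.15, limma adjusted p = 0.673). TOP2A, which untangles DNA before division, had 67.8, 57.3 and 58.5 RPKM with Nala and 75.7, 75.2 and 72.1 RPKM in NC (-0.24 ± 0.10, limma adjusted p = 0.799). CCNB1, cyclin B1, had 61.7, 59.2 and 58.0 RPKM with Nala and 61.0, 72.0 and 70.5 RPKM in NC, and its groups overlap. Nala replicate 1 was the highest of the Nala libraries in 33 of the 42 genes. In bulk libraries fewer dividing cells and less RNA per dividing cell cannot be told apart.

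Among 45 DNA replication genes none was called, 12 (26.7%, against 8.1% of all genes) lay below NC without overlap and 4 (8.89%, against 10.3%) above. The median log2 fold change was -0.07, and it was -0.034 without NC replicate 2. LIG1, the ligase that joins replicated DNA fragments, had 33.0, 32.8 and 33.8 RPKM with Nala and 37.5, 39.7 and 38.8 RPKM in NC (-0.21 ± 0.11, limma adjusted p = 0.946).

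**Figure D4:**
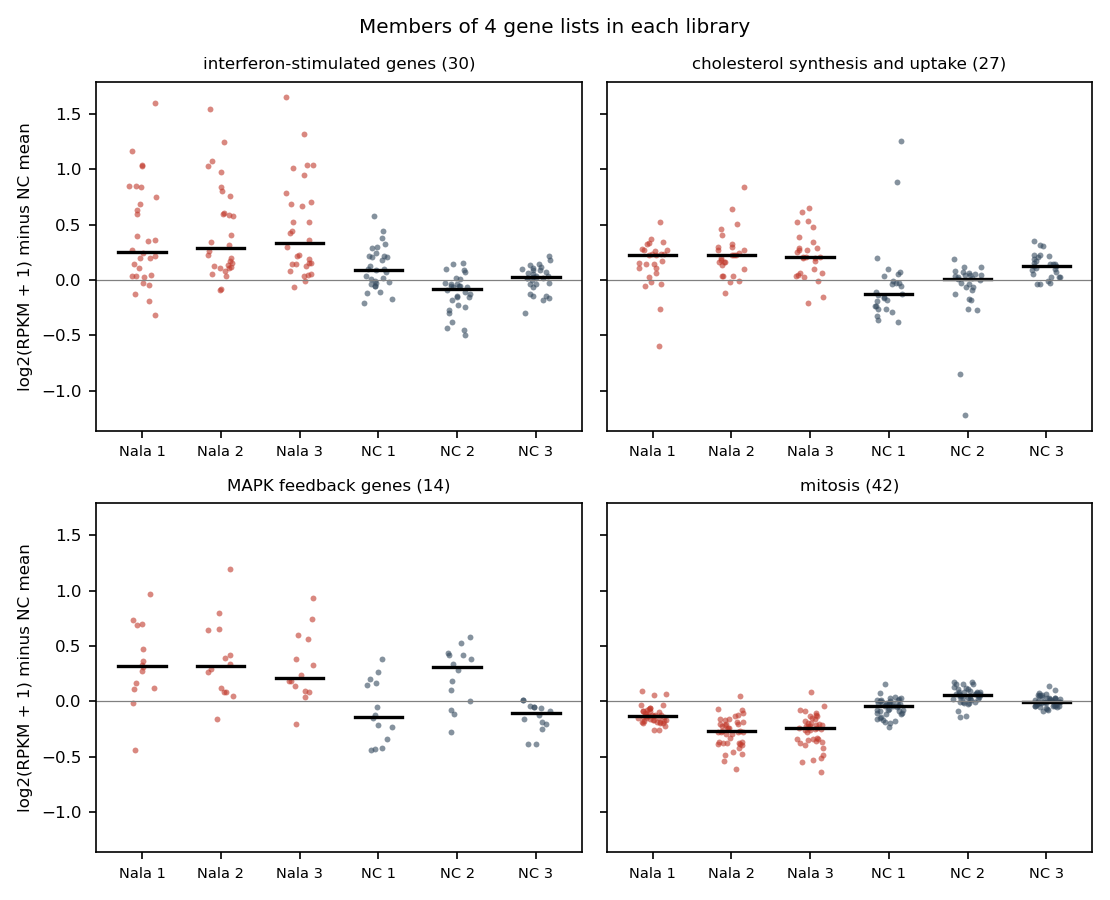
Difference of each list member's log2(RPKM + 1) from its NC mean in each library, for 4 lists, with 1 point a gene, Nala libraries left of NC libraries and the median of the list as a black bar. The interferon, cholesterol and MAPK feedback medians lie above 0 and the mitosis median below 0 in all 3 Nala libraries, and for MAPK feedback the median of NC replicate 2 reaches the Nala medians.

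The rest of the lists held no called gene. Their counts without overlap stand beside shares over all genes of 10.3% above NC and 8.1% below, and the differences from these shares were not tested. Of 36 genes of ATF4 and the amino acid response 7 (19.4%) lay above NC without overlap and 4 (11.1%) below. NUPR1, a stress-induced chromatin protein, had 23.2, 34.3 and 38.7 RPKM with Nala and 10.2, 19.3 and 16.96 RPKM in NC (0.92, limma adjusted p = 0.421). Of 29 p53 targets 5 (17.2%) lay above and 1 (3.45%) below. The NF-kB and inflammatory list had 2 above and 2 below among 16 (12.5% each). TNFAIP3 was the lower gene with the smallest p of all, with 9.63, 9.46 and 8.95 RPKM with Nala and 14.6, 15.6 and 14.3 RPKM in NC (-0.60 ± 0.11, limma adjusted p = 0.105). Immediate early genes had 1 above and 1 below among 19 (5.26% each), and WNT targets 0 above and 1 (10.0%) below among 10. MondoA and ChREBP targets had 0 above and 1 (14.3%) below among 7, with 6 of the 7 fold changes negative and a median of -0.15. Fatty acid genes had 5 above and 5 below among 28 (17.9% each). Nuclear-encoded respiratory chain genes had 1 (2.27%) above and 6 (13.6%) below among 44, with 37 of the 44 fold changes negative. ER chaperones had 1 (3.85%) above and 3 (11.5%) below among 26, and cytosolic heat shock genes 2 (9.52%) and 1 (4.76%) among 21. Ribosome biogenesis genes had 0 above and 2 (6.67%) below among 30, and lysosome genes 2 and 2 among 26 (7.69% each). Apoptosis regulators had 4 (15.4%) above and 2 (7.69%) below among 26, and claudins and tight junction genes 0 and 1 (8.33%) among 12. Mesenchymal and invasion genes had 5 (18.5%) above and 6 (22.2%) below among 27. Markers of other cell types were few: of the fibroblast list 5 of 13, of the endothelial list 2 of 10 and of the immune list 4 of 18 reached the filter, and none was called. Of 9 ductal and other epithelial markers 1 lay above NC without overlap and 1 below (11.1% each).

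**Figure D5:**
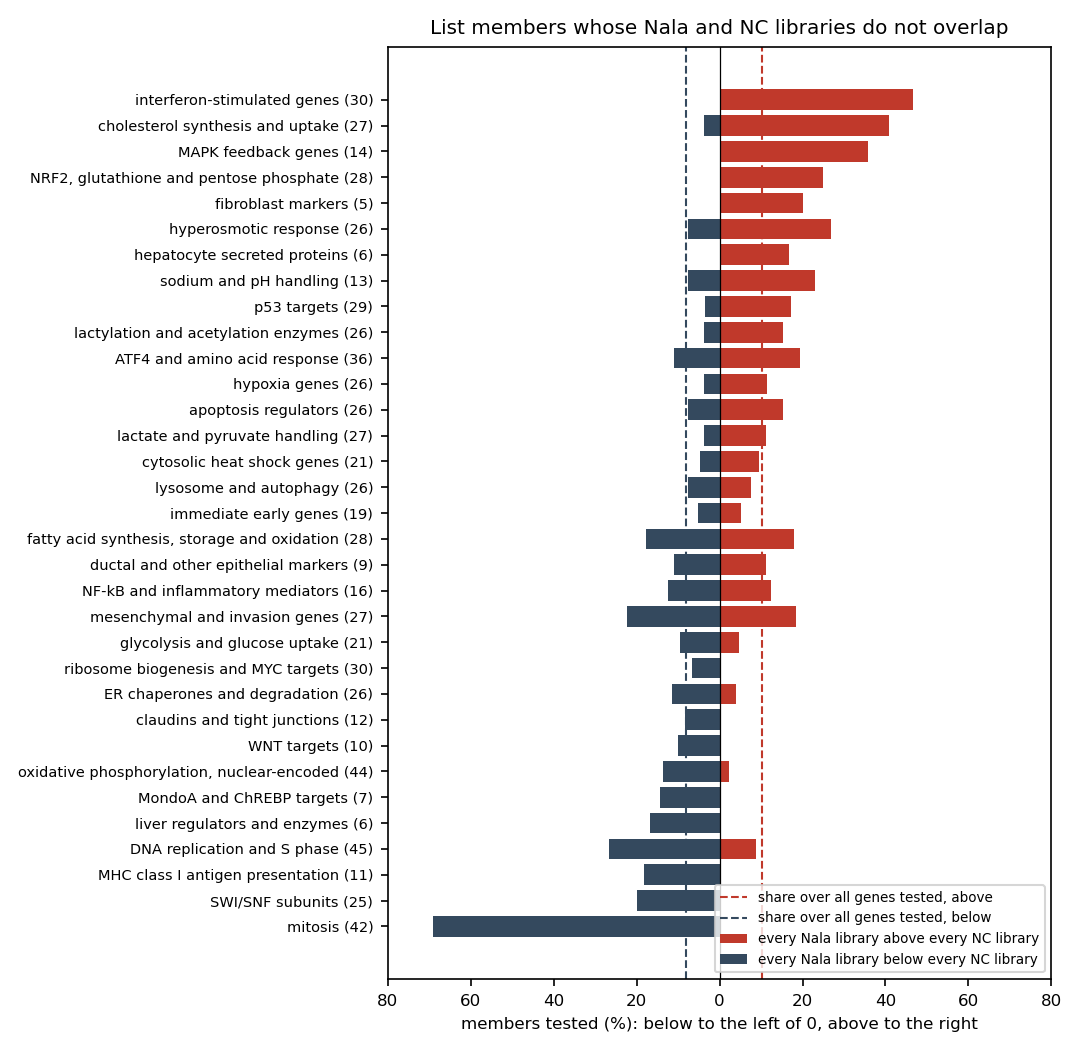
Share of each list's tested genes, in percent, with every Nala library above every NC library and with every Nala library below every NC library; lines mark the shares over all genes, 10.3% and 8.1%, and lists with neither kind of gene are not drawn. The interferon (46.7%) and cholesterol (40.7%) lists reach furthest above, and the mitosis list (69.0%) furthest below.

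Some of the largest differences outside the called genes rested on few reads. RAB17, a small GTPase of epithelial traffic, had 8.75, 11.1 and 8.95 RPKM with Nala and 4.42, 1.91 and 1.61 RPKM in NC (1.58 ± 0.31, limma adjusted p = 0.155). IGFBP3, which binds insulin-like growth factors, had 46.3, 37.5 and 18.3 RPKM with Nala and 94.8, 64.9 and 57.4 RPKM in NC (-0.96 ± 0.23, limma adjusted p = 0.299), and PAPLN, a matrix protein, had 5.98, 6.20 and 6.06 RPKM with Nala and 14.2, 11.2 and 11.8 RPKM in NC (-0.92 ± 0.21, limma adjusted p = 0.236). MIR3189, inside GDF15, had 8, 18 and 12 reads with Nala and 4, 3 and 1 reads in NC, while MIR1908 had 4, 5 and 4 against 3, 1 and 0. On the lower side MIR503 had 1, 0 and 1 reads with Nala and 3, 6 and 3 reads in NC, and MIR4722, SNORD1B, SNORD59B, MIR5581 and SNORA16A had from 0 to 10 reads with Nala and from 2 to 16 reads in NC. None of these small RNA genes was called. ITGA2, an integrin that binds collagen, had 25.5, 20.7 and 18.9 RPKM with Nala and 11.4, 12.7 and 9.29 RPKM in NC (0.96 ± 0.15, limma adjusted p = 0.0688).

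The 2-DG libraries give another agent beside the same NC libraries, so the comparisons with NC share their controls. Against NC, limma called 43.1% of the 12612 genes with 2-DG, and of the 17 genes called with Nala 7 were higher and 2 lower. Directly compared, Nala and 2-DG differed in 35.7% of all genes, counting both directions, and 12 of the 17 were higher with Nala and none lower. The 17 were chosen as high in these same Nala samples, which favours that direction. Their p-values against 2-DG are therefore descriptions and no separate test. SLC6A12 had 11.2, 11.9 and 10.3 RPKM with Nala, 0.645, 0.699 and 0.532 RPKM with 2-DG, and 0.532, 0.0436 and 0.23 RPKM in NC, and the 3 2-DG values lie far below the Nala values (limma adjusted p = 1.57e-05). IFIT2 had 10.9, 13.5 and 12.1 RPKM with 2-DG and IFIT3 14.5, 21.3 and 19.1 RPKM, both near their NC values and below their Nala values (limma adjusted p = 2.30e-05 and 0.000141 for Nala minus 2-DG). PPIAP46 had 4.94, 4.68 and 5.06 RPKM with 2-DG. THPO and ZC3HAV1 were the genes higher with Nala and lower with 2-DG than in NC, by -0.71 (limma adjusted p = 0.00431) and -0.22 (limma adjusted p = 0.0365) in the 2-DG fit.

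EREG, ACSS2, AKR1C1 and SNORD63 were called with both agents and gave no call between them. For SNORD63 both calls rest on few reads, 7, 8 and 8 with Nala and 6, 8 and 9 with 2-DG. The same NC libraries, with 3, 2 and 3 reads, served both, and the log-scale test does not see counting error that large. EREG had 24.6, 24.4 and 25.2 RPKM with 2-DG, and Nala minus 2-DG was -0.14 ± 0.11 on the log2 scale (limma adjusted p = 0.328). ACSS2 had 54.8, 46.8 and 53.5 RPKM with 2-DG (Nala minus 2-DG 0.07, limma adjusted p = 0.599), and AKR1C1 had 8.79, 16.6 and 15.2 RPKM (0.14, limma adjusted p = 0.649). AKR1B1 was intermediate, with 147.7, 152.5 and 151.2 RPKM with 2-DG, lower than with Nala (0.19, limma adjusted p = 0.0241) and higher than in NC (0.37, limma adjusted p = 0.000373). PSD4 was the other gene in between, with 5.39, 5.03 and 5.07 RPKM with 2-DG. Over the 8 samples of the 3 groups, the profiles most like that of PPIAP46, the gene with the smallest p, were those of IFIT2 (Pearson r = 0.981), SLC6A12 (0.980), MALT1 (0.975), THPO (0.959) and SRPK2 (0.959), which share the libraries and the choice of Nala-high genes.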

How the data were processed

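RNA-seq of 3 Nala, 3 2-DG and 3 NC libraries was analysed, and each library's group and number come from its name in the labels. The treatment field of Nala replicate 1 is garbled. The deposited table holds RPKM, which the authors made from reads per gene, gene model length and library total, judged from the values, with 1 column a library. The submitters' processing notes give hg38 and list, for RNA-seq, ChIP-seq and ATAC-seq without distinction, fastp 0.23.1, the aligners STAR 2.7.6a, HISAT2 2.1.0 and Bowtie2 2.2.5, RSEM 1.2.8, DESeq, HOMER 4.8.3 and MACS2 2.2.7.1. No source used here says which of them made the RPKM, whether repeated reads were removed or whether strand was used. No gene exceeds 229.6 RPKM or a mean of 1.21 reads per base, and the part of this limit in the values of highly expressed genes was not tested.

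The RPKM of a gene are whole multiples of what 1 read is worth, and whole reads were recovered for 100% of the 17808 genes within 0.0001 reads. They served the replicate check, the read numbers and an alternative test. The main test was limma 3.58.1 in R 4.3.3 with an intensity trend on log2(RPKM + 1), fitted to 8 samples (2 Nala, 3 2-DG and 3 NC, 5 residual degrees of freedom), with Benjamini-Hochberg adjustment over the 12612 genes with at least 1 RPKM in 3 of the 6 Nala and NC libraries. Genes were called at an adjusted p under 0.05. A fold change on this scale understates that of genes with low levels. Arrangements in which all Nala libraries lie above or below all NC libraries were counted over the same genes, with the alike pair as 2 libraries.

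Positions and promoters come from RefSeq GRCh38.p14, where 17697 symbols matched directly and 86 through an older symbol. The genes named are every called gene, the 8 largest rises and 8 largest falls without overlap of libraries and a mean of 5 RPKM or more in the higher group, a fixed set followed whatever its result, and the 2 members of each list with the smallest p. CPS1, ASS1, CEBPA, CYP11A1, PPIA, LIPA, CIP2A, AKR1C2, AKR1C3, SQLE, SREBF1, MVD, DUSP6, AREG, HBEGF, TOP2A, CCNB1 and the lower genes of alternative fits were chosen after their values were seen. A called gene and some followed or list genes are counted but not reported here by name. The members and lists were chosen with earlier results of these data known. Alternatives were another pseudocount, filter, scaling, trend, set of samples, treatment of the alike pair, a replicate block, voom, and each library left out in turn.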

Additional observations from a re-analysis of the deposited data

How the results depend on the processing

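The count of 17 called genes was 69 with the Nala pair kept apart, 8 with a pseudocount of 0.1, 8 with a filter over 3 of all 9 libraries, 9 without the intensity trend, 8 with Nala and NC fitted alone and 73 with voom; the causes were not tested. It ranged from 2 to 21 with 1 library left out, and the 2 came without Nala replicate 1, where the alike pair is 1 sample assumed to vary like the other groups. The other 5 alternatives gave 13 to 25. Same-numbered Nala and NC libraries did not deviate together (r = -0.12, -0.10 and -0.01), and r reached 0.13 between libraries of different number. No pairing by number was detected, which with so few libraries does not exclude a shared culture. A replicate block with the Nala pair kept apart called 31 genes, 30 higher and 1 lower, including all 17. The check of the Nala pair gave 1.13 per degree of freedom among the least densely covered 25% of genes. The log2 fold changes that changed sign all belonged to genes not called. With 1 library left out, CA9 ranged from -0.44 to 0.74, HNF4A from -0.090 to 0.16, LDHA from -0.035 to 0.036, LDHB from -0.020 to 0.035, MPC1 from -0.20 to 0.020, MYC from -0.11 to 0.030, PDK1 from -0.47 to 0.12, SGK1 from -0.027 to 0.074 and SLC6A6 from -0.093 to 0.089. CA9 was -0.23 with the pair apart, with or without the block, and -0.073 with voom. Scaling by median of ratios gave -0.0035 for LDHA and -0.0079 for LDHB. Each list median named in the text kept its sign with 1 library left out, apart from that of the lactate list (-0.02 to 0.02). Those ranges were 0.24 to 0.31 for interferon-stimulated genes, -0.25 to -0.17 for mitosis, 0.20 to 0.46 for MAPK feedback, 0.13 to 0.29 for cholesterol, 0.0032 to 0.13 for NRF2, -0.076 to -0.034 for DNA replication, 0.033 to 0.081 for the hyperosmotic list and -0.085 to -0.036 for SWI/SNF. Genes of the text called with the Nala pair kept apart but not in the reported fit were ABCC2, ADM, AKR1C2, AKR1C3, CCL2, HERC6, IFI44, IFIT1, ITGA2, MIR3189, OASL, RAB17, SLC5A3 and TNFAIP3, and voom called all of these but ADM and MIR3189, and also ETV4, IGFBP3, PAPLN and SPRY4. Depth limits genes with few reads, such as SNORD63 and the microRNA genes, and n = 2 for Nala limits the test.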
